A study of Mus musculus with 14 samples.

Results

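The genes Nras, Hras, Araf, Braf, Map2k1, Map2k2 and Mapk3 encode GTPases and kinases of the RAS, RAF, MEK and ERK cascade. They were taken by symbol, ignoring case, from the deposited expression table, and 7 of its 18481 genes matched. Their levels were read in 14 tumours of SMM102, a mouse melanoma line implanted subcutaneously into female mice of the C57BL/6J strain aged 6 to 8 weeks. Each mouse received 100000 cells at each of 2 sites, and dosing started once tumours measured 150 to 300 mm3. PLX4032, also known as vemurafenib, blocks the BRAF kinase and was injected intraperitoneally at 50 mg/kg, 5 times a week. The treated arm holds 2 tumours each of days 3, 6 and 18 and 4 tumours of day 27, and the control arm holds 2 tumours of day 3 and 2 of day 6. Controls are untreated according to the sample labels but given vehicle according to the series' design. SMM102 is 1 cell line, so the tumours are replicates of that line, and not all of them come from different hosts. The 4 tumours of day 27 were the left and right tumours of 2 mice. Since no column can be assigned to a mouse, all 4 entered the tests separately, and p-values that include day 27 are too small. They also carry 3 of the 8 degrees of freedom behind the spread used on the other days. Without controls later than day 6, treatment and time cannot be told apart at days 18 and 27.

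RAS proteins are membrane-bound switches that cycle between a GDP-bound and a GTP-bound form. Loaded with GTP, they recruit RAF kinases to the membrane, RAF kinases phosphorylate the MEK kinases, and MEK kinases phosphorylate the ERK kinases. Active ERK then phosphorylates transcription factors and switches on genes that include inhibitors of the cascade itself. In melanoma the cascade is often driven by mutated BRAF or NRAS. The cascade is run by phosphorylation and GTP loading, which transcript levels do not measure, and the table does not tell alleles of a gene apart.

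Values are the deposited expression signal, a TPM-like scale that takes transcript length into account. Levels are given as that signal. Changes are differences of log2(value + 1) between group means from limma, with the standard error (SE), and a change was called at a Benjamini-Hochberg adjusted p under 0.05 over the 15841 genes tested. All 7 genes were tested. In bulk tumours, fewer cells of a type and less RNA per cell cannot be told apart.

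The genes lie on 6 chromosomes of the GRCm38 build, and each is annotated as protein coding. Nras spans chr3:103058285-103067914 and Araf chrX:20797814-20860519, both on the plus strand. Hras spans chr7:141189105-141194005 and Braf chr6:39603237-39725463, both on the minus strand. Map2k1 spans chr9:64185770-64253631 on the minus strand, while Map2k2 (chr10:81105915-81133975) and Mapk3 (chr7:126759601-126765819) are on the plus strand. Hras and Mapk3 were called lower and Braf higher than in controls on 1 day each. For Mapk3 no RefSeq promoter was available. The 250 bases before the RefSeq starts of Hras and Braf (GRCm38.p6) are shown, 5′ to 3′ on the strand of the gene. The Hras stretch is chr7:141194005-141194254 and the Braf stretch is chr6:39725464-39725713. Capitals mark GGGCGG (the GC box, also as CCGCCC) and CCAAT in Hras, and TGACGTCA (the cAMP response element) in Braf.
Hras: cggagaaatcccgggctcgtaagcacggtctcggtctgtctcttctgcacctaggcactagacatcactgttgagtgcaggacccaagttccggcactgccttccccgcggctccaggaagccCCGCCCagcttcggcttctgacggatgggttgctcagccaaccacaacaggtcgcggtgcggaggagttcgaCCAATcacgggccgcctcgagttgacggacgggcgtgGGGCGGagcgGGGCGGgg
Braf: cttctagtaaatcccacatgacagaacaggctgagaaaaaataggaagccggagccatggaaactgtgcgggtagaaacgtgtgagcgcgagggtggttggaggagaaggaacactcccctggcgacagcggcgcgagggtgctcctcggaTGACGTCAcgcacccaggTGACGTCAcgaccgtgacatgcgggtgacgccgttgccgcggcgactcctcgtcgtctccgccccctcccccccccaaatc
The Braf stretch holds 2 copies of TGACGTCA, whose first bases lie 99 and 81 bases before the start. Of 27025 mouse promoters of the same length, 1.6% hold at least 1 copy on either strand and 0.04% hold at least 2. Of the 6 members with a RefSeq promoter, Braf is the one with this motif. The Hras stretch holds 3 GC boxes, at 127, 18 and 8 bases before the start, and 1 CCAAT at 55 bases. At least 1 GC box occurs in 32.9% of mouse promoters, at least 2 in 16.81%, and at least 1 CCAAT in 34.5%. Further motifs were searched as well, so the marked ones are picked from a longer list. Among them, CCGGAA, the core of ETS sites, occurred 1 time in Hras and 0 times in Braf (12.2% of mouse promoters). The AP-1 site TGANTCA occurred in neither (6.9% of mouse promoters). These matches describe letters, and no binding was measured.

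Over all 14 tumours Mapk3 averaged 134, Map2k2 130, Map2k1 79.2, Nras 61.8, Araf 60.3, Hras 57.4 and Braf 6.24. Map2k2 was above Map2k1 in 14 of 14 tumours, Map2k1 was above Nras and Araf in 14 of 14, and Hras was above Braf in 14 of 14. Neighbours that did not keep their order were Mapk3 and Map2k2, with Mapk3 higher in 9 of 14 tumours, and Nras, Araf and Hras, with each pair in that order in 9 of 14. Map2k1 was above Hras in 12 of 14. Braf stood at the 32.4th percentile of all gene levels, and the other members stood between the 81.8th and the 93.3rd.
The spread over the 14 tumours was smallest for Map2k2, with a coefficient of variation of 8.28%, followed by Araf (8.38%) and Nras (9.12%). It was 12.4% for Map2k1, 12.9% for Mapk3, 19.1% for Braf and 21.3% for Hras. The SD on the log2 scale stood at the 4.0th percentile of the tested genes for Map2k2, the 4.60th for Araf, the 6.69th for Nras, the 19.9th for Map2k1, the 22.9th for Mapk3, the 33.1st for Braf and the 54.0th for Hras. These percentiles are over tested genes of every level and were not matched for level.

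**Figure D1:**
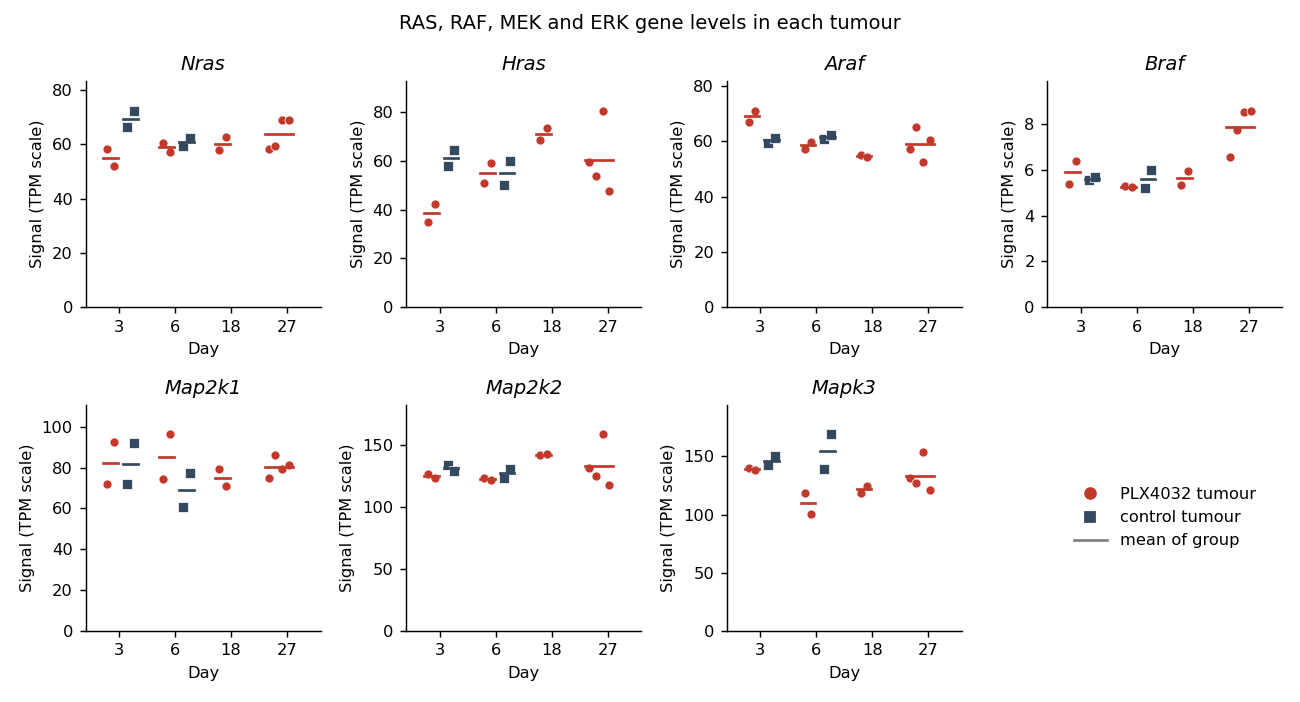
Level of each gene (deposited signal, y axis from 0) by day of collection, with 1 point per tumour and a bar at the group mean, PLX4032 left of control where both exist. Hras lay at 35.0 and 42.2 in the day 3 PLX4032 tumours, below the controls at 50.0 to 64.5, and Braf lay at 6.56 to 8.59 in the day 27 tumours, above the controls at 5.20 to 5.99.

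Cell type markers differed between the groups. The summed level of 14 leukocyte markers, all in the table, was 8927 and 14718 in PLX4032 tumours of day 3, 2956 and 5461 on day 6, 2295 and 3739 on day 18, and 882 to 1752 on day 27, against 828 to 2244 in controls. The sum of 8 genes of dividing cells was 180 and 183 on day 3 and 557 to 860 on the later days, against 597 to 815 in controls. The adipocyte sum (8 of 9 markers in the table) was 2680 and 2708 on day 18, against 23.8 to 71.0 in controls. The fibroblast sum (7 of 7) was 6079 and 8052 on day 3, 3752 and 5331 on day 6, 6020 and 7138 on day 18 and 3175 to 3627 on day 27, against 3225 to 4490 in controls. The endothelial sum (7 of 7) was 141 and 209 on day 3 and 81.8 to 159 on the later days, against 47.2 to 110 in controls. The skeletal muscle sum (6 of 6) was 513 and 616 on day 3, 213 and 329 on day 6, 26.2 and 1310 on day 18 and 5.53 to 16.9 on day 27, against 22.5 to 203 in controls. The melanocyte sum (4 of 8 markers read) was 27.0 and 34.6 on day 3 and 7.21 to 13.7 on the later days, against 7.68 to 16.9 in controls. Of those 4, Kit lay at 19.1 and 22.8 on day 3 and at 3.03 to 13.2 in controls, Mitf at 6.55 and 10.4 on day 3 and at 2.76 to 4.73 in controls, Pmel did not exceed 1.05 in any tumour, and Sox10 reached 2.25 on day 27, against 0.03 to 0.18 in controls. The part of cell makeup in the changes below was not tested.

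Nras and Hras, the RAS members, both had lower values in every day 3 PLX4032 tumour than in every control, and Hras was called. Hras, named for its counterpart in Harvey rat sarcoma virus, had 35.0 and 42.2 in PLX4032 tumours of day 3, 50.7 and 59.0 on day 6, 68.6 and 73.7 on day 18, and 47.5, 54.0, 59.7 and 80.6 on day 27, against 50.0, 58.1, 60.1 and 64.5 in the controls. The day 3 tumours were the lowest of all 14, the day 18 tumours were above every control, and the day 6 and day 27 tumours overlapped the controls. At day 3 Hras fell by 0.58 on the log2 scale (SE 0.18, 95% interval -0.98 to -0.18, adjusted p = 0.0225 by limma), to 0.663 times the control mean. It was the 1 of 7 members called at day 3. Of all genes tested 45.8% were called there, 24.9% as higher and 20.8% as lower, so the share of members was below the background. The call rested on single tumours: without PLX4032 day 3 tumour 1 the change was -0.45 (adjusted p = 0.165 by limma), and it also missed the threshold without the second control tumour of day 3 (0.057) or of day 6 (0.061). Both low tumours were those with the highest leukocyte sums and the lowest sums of dividing-cell genes, and the part of either in the Hras value was not tested. The day 18 change of Hras was 0.29 (SE 0.18, adjusted p = 0.306 by limma), and those of days 6 and 27 were -0.08 and 0.03.

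Nras, the RAS gene most often mutated in melanoma, had 51.9 and 58.2 in PLX4032 tumours of day 3, 57.3 and 60.7 on day 6, 57.7 and 62.6 on day 18, and 58.3, 59.3, 68.9 and 69.2 on day 27, against 59.5, 62.2, 66.3 and 72.5 in the controls. The day 3 tumours lay below the lowest control and the later tumours overlapped the controls. The day 3 change was -0.24 (SE 0.10, adjusted p = 0.065 by limma), short of the threshold. It passed under median-of-ratios scaling (-0.31, adjusted p = 0.0205), quantile normalisation (-0.27, 0.047) and against the day 3 controls alone (-0.33, 0.035). Of the 11 alternatives other than leaving out a tumour, 8 left it uncalled. Quantile normalisation also moved the day 3 median over all genes from 0.02 to -0.15. Without 1 tumour the Nras change ran from -0.32 to -0.16. The log2 ratio of Nras to Hras averaged 0.12 ± 0.34 (SD, n = 10) in PLX4032 tumours and 0.17 ± 0.08 (SD, n = 4) in controls, a difference of -0.05 (exact permutation test over 1001 splits, 2-sided, p = 0.797, also 0.797 after Benjamini-Hochberg adjustment over 3 ratios). That mean joins days on opposite sides: the ratio was 0.74 and 0.30 on day 3, above every control, and -0.25 and -0.23 on day 18, below every control, where controls ran from 0.05 to 0.25.

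Braf, whose protein is the kinase that PLX4032 inhibits, was higher on day 27 than in the controls, and Araf was not called against them on any day. Braf had 5.39 and 6.39 in PLX4032 tumours of day 3, 5.23 and 5.29 on day 6, 5.35 and 5.95 on day 18, and 6.56, 7.74, 8.51 and 8.59 on day 27, against 5.20, 5.55, 5.68 and 5.99 in the controls. The 4 day 27 tumours were the highest of all 14, and the tumours of the other days overlapped the controls. The mean was 7.85 ± 0.94 in day 27 tumours (SD, n = 4) and 5.60 ± 0.33 in controls (SD, n = 4), a log2 change of 0.42 (SE 0.11, 95% interval 0.18 to 0.65, adjusted p = 0.044 by limma). Braf was the 1 of 7 members called on day 27, when 6.67% of all genes were called, 3.58% as higher and 3.09% as lower. The call was close to the threshold. Of the 14 fits that each left out 1 tumour, 1 kept it, the fit without day 27 tumour 1, and with the 4 tumours averaged into 2 mice it was lost under each of 3 possible pairings (adjusted p from 0.122 to 0.150). Changes of Braf at days 3, 6 and 18 were 0.06, -0.08 and 0.01, none called.

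The annotated span of Braf shares 146 bases with that of Ndufb2, a gene for a subunit of respiratory complex I on the opposite strand. The Braf span also shares 516 bases with Fth-ps2, a processed pseudogene on the same strand that has no expression value here. Spans include introns, and whether the shared bases lie in exons was not read. Whether counting used the strand was not stated. Ndufb2 averaged 145 ± 17 on day 27 (SD, n = 4) and 105 ± 1.6 in controls (SD, n = 4), and 141 ± 16 on day 18 (SD, n = 2), when Braf had 5.35 and 5.95. Reads of the stretch shared with Ndufb2 cannot be assigned to a strand here. The part of reads from either shared stretch in the Braf value was not tested.

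Araf, a RAF kinase with weaker activity on MEK than BRAF, had 67.1 and 71.1 in PLX4032 tumours of day 3, 57.3 and 59.7 on day 6, 54.3 and 55.2 on day 18, and 52.6, 57.3, 60.4 and 65.2 on day 27, against 59.3, 60.7, 61.3 and 62.1 in the controls. The day 3 tumours were above every other tumour, while those of day 18 were below every control. The changes were 0.18 at day 3 (SE 0.09, adjusted p = 0.107 by limma), -0.06 at day 6, -0.15 at day 18 and -0.05 at day 27.

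The log2 ratio of Braf to Araf averaged -3.23 ± 0.32 (SD, n = 10) over all PLX4032 tumours and -3.44 ± 0.07 (SD, n = 4) in controls, a difference of 0.22 that did not pass (exact permutation test, 2-sided, p = 0.219, adjusted p = 0.656). On day 27 that ratio lay between -3.13 and -2.63, above the controls at -3.54 to -3.37.

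**Figure D2:**
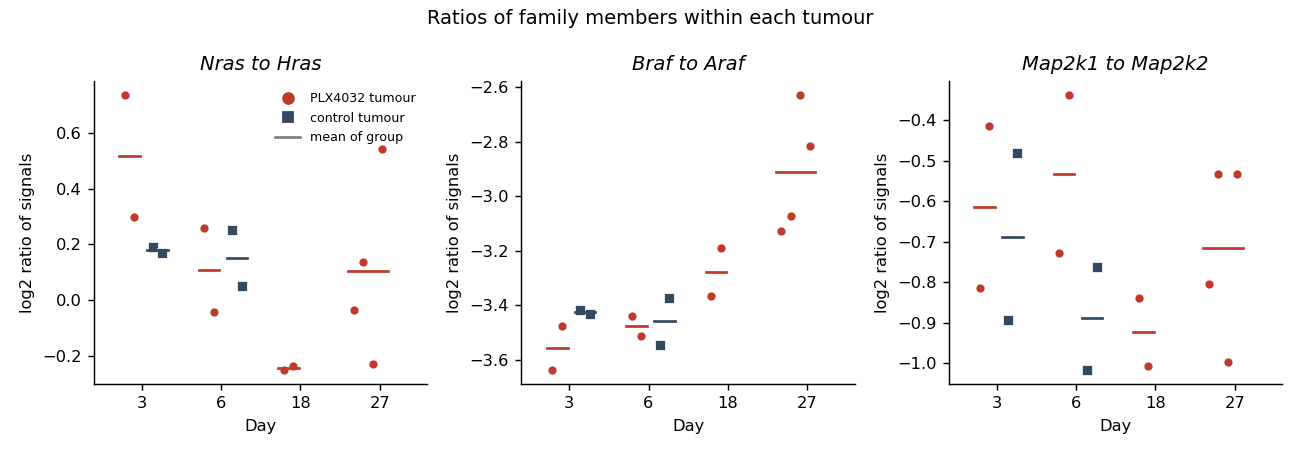
Within-tumour log2 ratios of Map2k1 to Map2k2, Braf to Araf and Nras to Hras (y axis) by day, with 1 point per tumour and a bar at the group mean, PLX4032 left of control where both exist. The Braf to Araf ratio of the 4 day 27 tumours lay at -3.13 to -2.63, above the controls at -3.54 to -3.37.

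The MEK genes were called in no comparison with the controls. Map2k1, which encodes MEK1, had 72.0 and 92.6 in PLX4032 tumours of day 3, 74.2 and 96.3 on day 6, 70.9 and 79.3 on day 18, and 75.0, 79.5, 81.4 and 86.2 on day 27, against 60.8, 71.7, 77.1 and 92.0 in the controls. Every treated group overlapped the controls, and the tumours within days 3 and 6 lay far apart. The changes were 0.13 at day 3 (95% interval -0.21 to 0.46), 0.18 at day 6, 0.01 at day 18 and 0.11 at day 27. Map2k2, which encodes the closely related MEK2, had 123.5 and 126.6 in PLX4032 tumours of day 3, 121.7 and 123.0 on day 6, 141.9 and 142.3 on day 18, and 117.8, 124.6, 130.9 and 158.5 on day 27, against 123.1, 128.5, 130.8 and 133.4 in the controls. The day 18 tumours were above every control, those of day 6 lay just below the lowest control, and the other days overlapped them. Its changes ran from -0.07 at day 6 to 0.14 at day 18, none called. The log2 ratio of Map2k1 to Map2k2 averaged -0.70 ± 0.23 (SD, n = 10) in PLX4032 tumours and -0.79 ± 0.23 (SD, n = 4) in controls, a difference of 0.09 (exact permutation test, 2-sided, p = 0.527, adjusted p = 0.791).

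Mapk3, which encodes ERK1, had 138.0 and 140.5 in PLX4032 tumours of day 3, 100.8 and 118.8 on day 6, 118.9 and 124.6 on day 18, and 121.0, 127.3, 131.8 and 153.4 on day 27, against 139.4, 142.6, 150.4 and 169.1 in the controls. The tumours of days 6 and 18 were below every control, and those of days 3 and 27 overlapped them. At day 6 Mapk3 fell by 0.45 on the log2 scale (SE 0.11, 95% interval -0.70 to -0.20, adjusted p = 0.045 by limma), the 1 of 7 members called there, where 5.92% of all genes were called, 4.49% as higher and 1.43% as lower. Of the 14 fits without 1 tumour, 3 kept the call, those without PLX4032 day 6 tumour 1, control day 3 tumour 1 or control day 6 tumour 1. Without PLX4032 day 6 tumour 2, the lowest value, the change was -0.33 (adjusted p = 0.539 by limma), and with every column rescaled to a total of 1000000 it was -0.37 (0.086). The changes were -0.11 at day 3, -0.30 at day 18 (SE 0.11, adjusted p = 0.118) and -0.17 at day 27 (adjusted p = 0.313). Under quantile normalisation the day 18 change was -0.42 and was called (adjusted p = 0.029).

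**Figure D3:**
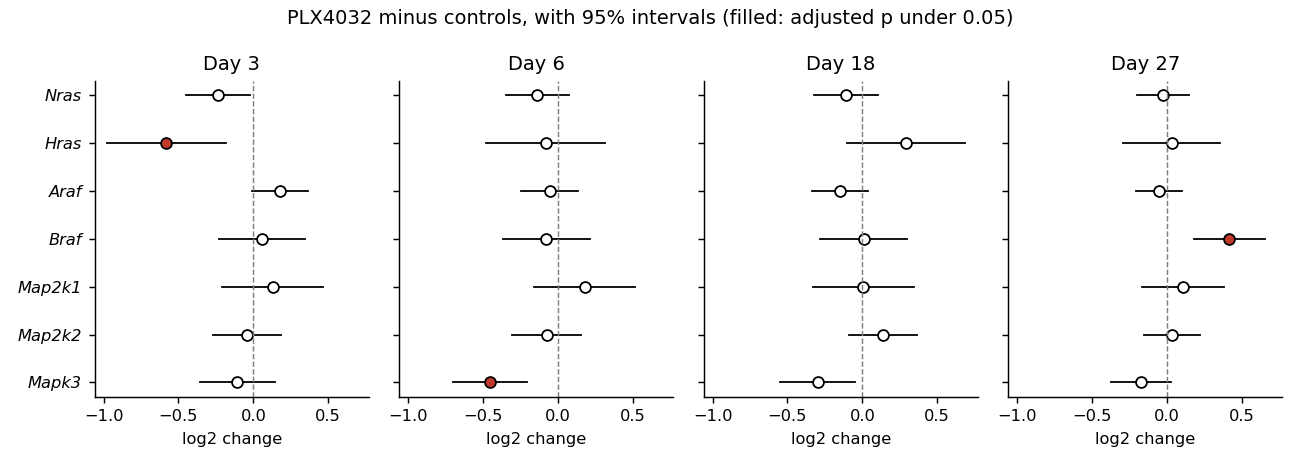
Log2 change of each gene (PLX4032 minus controls, x axis, difference of log2(value + 1)) on the 4 days, with the 95% interval from limma and filled points for called changes. The called ones are Hras at day 3 (-0.58), Mapk3 at day 6 (-0.45) and Braf at day 27 (0.42).

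The median absolute change of the 7 members was 0.13 at day 3, 0.08 at day 6, 0.14 at day 18 and 0.05 at day 27, against 0.39, 0.18, 0.23 and 0.15 over all genes tested. The medians over all genes cover every level, while the members other than Braf stood at the 81.8th percentile of level or above. Genes of like level were not read separately, so no unusual stability of the members can be read from this. At day 18, 0 of 7 members were called by limma, 1 had an unadjusted p under 0.05, and 7.92% of all genes were called, 5.42% as higher and 2.5% as lower. Values of PLX4032 tumours and controls did not overlap for 3 members at day 3 (58.9% of all genes), 2 at day 6 (29%), 4 at day 18 (38.4%) and 1 at day 27 (13.8%). Between the controls of day 6 and day 3 the changes of the members ran from -0.24 to 0.07. Values did not overlap for 1 member, against 32% of all genes. By limma 0 of 7 members and 0% of all genes were called, while 886 genes and 0 members had an unadjusted p under 0.05.

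Within treatment, day 27 was compared with day 3, where 52% of all genes were called, 24.6% as higher and 27.4% as lower. Hras was higher on day 27 (log2 change 0.61, SE 0.18, adjusted p = 0.0148 by limma), Braf was higher (0.36, SE 0.13, adjusted p = 0.040) and Araf was lower (-0.23, SE 0.09, adjusted p = 0.041). Of the 14 fits without 1 tumour, 13 kept the Hras call, which was lost without PLX4032 day 3 tumour 1 (0.48, adjusted p = 0.127 by limma). For Braf 3 kept it, those without day 27 tumour 1 or either control of day 6, and it was lost under each pairing of the day 27 tumours into mice (adjusted p from 0.053 to 0.069). For Araf 1 kept it, the fit without day 27 tumour 2, and it was lost under pairing 2 (adjusted p = 0.061), median-of-ratios scaling (0.150), quantile normalisation (0.140) and rescaling to 1000000 (0.332). These 3 of 7 members were a share no higher than that of all genes. Values did not overlap for 4 of 7 members, against 65.1% of all genes. Nras had 0.21 (adjusted p = 0.090), and the changes of Map2k1, Map2k2 and Mapk3 were -0.02, 0.08 and -0.07. The same day 3 tumours enter this comparison and that of day 3 with controls.

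Other genes of the cascade were read as lists, whose counts at day 3 stand beside 24.9% of all genes called higher and 20.8% called lower. Of the RAS relatives, Rras2 (-0.61) fell at day 3, while Rras, a relative that acts on cell adhesion, rose by 0.66, and at day 18 Rras2 rose (0.62). Of 13 adaptors and RAS exchange factors, which link receptors to RAS and load it with GTP, 8 rose and 2 fell at day 3, with a median of 0.59 beside 0.02 for all genes. Under quantile normalisation 5 rose and 2 fell, with a median of 0.33 beside -0.15 for all genes. Grb2, the adaptor that binds active receptors, rose by 1.04, Rasgrp1, an exchange factor of lymphocytes, by 2.12, while Rasgrf1, an exchange factor known from neurons, fell by 2.22. The leukocyte sum was highest in the same tumours, and its part was not tested. On day 6 Grb2 rose (0.47) and Rasgrf1 fell (-1.01), on day 18 Frs2 (-0.40) and Shc1 (-0.49) fell, and on day 27 Rasgrp3 rose (0.68). The rest of the 13 were not called on those days. Of all genes, 4.49% were called higher and 1.43% lower on day 6, and 5.42% and 2.5% on day 18. On day 27 the shares were 3.58% and 3.09%. With columns rescaled to 1000000 the calls of Rasgrf1 on day 6 (adjusted p = 0.076 by limma), Frs2 (0.104) and Shc1 (0.076) were lost.
Of 10 RAS GTPase-activating proteins, which switch RAS off, 2 rose and 5 fell at day 3 (median -0.30). Rasal3 (2.72) and Rasa4 (2.70) rose and Rasa1 (-0.76) fell. On day 27, when 3.58% of all genes were called higher and 3.09% lower, 2 rose, Rasal2 (0.92) and Rasa1 (0.34). Rasa3 fell on that day (-0.75, not called with columns rescaled to 1000000, adjusted p = 0.067 by limma). Of 17 scaffolds and RAF regulators 2 rose and 8 fell at day 3 (median -0.05), with the scaffold Ksr1 (1.31) rising and the 14-3-3 gene Ywhae and the chaperone gene Hsp90ab1 falling (both -0.72). Of 10 kinases and factors that ERK activates, 4 rose and 2 fell at day 3 (median 0.16), among them Rps6ka1 (1.45), Mknk1 (1.31) and Mknk2 (0.72), which rose. Under quantile normalisation the median of these 10 was -0.12, beside -0.15 for all genes. Of 14 genes of the parallel JNK and p38 cascades, 3 rose and 6 fell (median -0.17).

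Genes that ERK switches on were read for comparison. Of 9 tested ERK output genes, transcripts known to follow ERK activity, 7 fell at day 3 with a median of -0.87, 1 fell at day 6 (-0.44), and 0 were called at day 18 (-0.32) or day 27 (0.13), against a median of -0.04, -0.08, 0.01 and 0.03 for the 7 members. With every column rescaled to the same total, 5 of the 9 fell at day 3. Under median-of-ratios scaling 8 fell, and under quantile normalisation 7. Of all genes, 20.8% were called lower at day 3 and 1.43% at day 6. In either direction 7.92% were called at day 18 and 6.67% at day 27, so 0 of 9 there cannot be read as a return to control levels. Day 27 against day 3, 8 of the 9 rose, with a median of 1.07 beside 0.08 for the members. In that comparison 24.6% of all genes were called higher. Between the controls of day 6 and day 3 the median of the 9 was -0.40, with 0 called by limma. The output list was written with earlier results on such genes known, so its direction is a description.

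**Figure D4:**
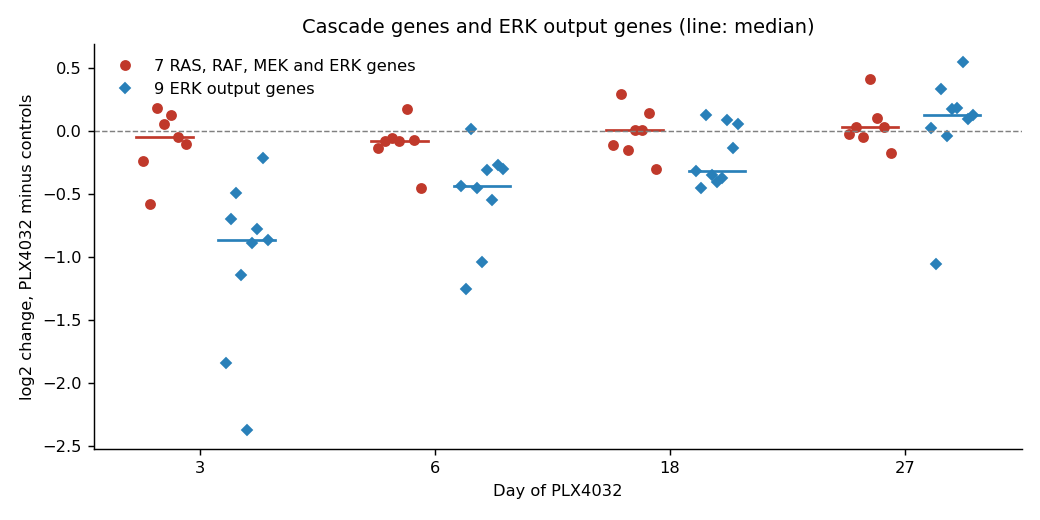
Log2 change (PLX4032 minus controls, y axis) by day for the 7 members and the 9 ERK output genes, with 1 point per gene and a bar at the median of each set. At day 3 the median is -0.04 for the members and -0.87 for the output genes, and at day 27 it is 0.03 and 0.13.

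The members did not share 1 profile over the tumours. As a description over 14 tumours that share treatment, day and cell makeup, log2 levels of Hras and Map2k2 had a Pearson correlation of 0.74, Hras and Araf -0.81, Araf and Map2k2 -0.67, and Nras and Hras 0.44. The genes most like each member by the same measure were Psmb5 (0.968), Trappc4 and Api5 (both 0.959) for Hras, Bmi1 (0.890), Fam206a (0.888) and Cpox (0.875) for Nras, and Gramd1b (0.937), Clk4 (0.936) and Ccnl2 (0.931) for Araf. For Braf they were Avl9 (0.936), Atf7ip (0.927) and Kcnj2 (0.925). For Map2k1 they were Sap30 (0.912), Tspan31 (0.907) and Tnfsf9 (0.858), for Map2k2 Prcc (0.924), Atp5d (0.920) and Naa38 (0.896), and for Mapk3 Tmem203 (0.906), Ift46 (0.901) and Arfgap3 (0.896). These are the best matches among the 15841 genes tested.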

How the data were processed

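Per the labels' protocols, frozen tumours gave Trizol RNA and Illumina TruSeq libraries. The authors' signal per gene symbol was deposited under the name TPM. Column totals lay between 879385 and 1084401, and 5 of the 14 were above 1000000, the total of TPM, so the deposited signal was rescaled by the authors in a way that no source states. Kallisto, sleuth and the mm10 build are named, without versions, in the submitters' processing notes. Depth per sample is unknown, so no counting error is given.

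Columns name a group but no animal. Whether the day 18 tumours shared a mouse is unstated, as it is for a day 6 control and a day 3 PLX4032 tumour that carry 1 number, so the p-values cover the spread among these samples, which may be partly technical. Genes reaching 1 in at least 2 tumours (15841) were fitted with limma 3.58.1 in R 4.3.3 on log2(value + 1), with 6 group means, 8 residual degrees of freedom and a variance trend. Tests were 2-sided, and p-values were adjusted over all genes (Benjamini-Hochberg). Where leaving out a tumour left 1 in its group, its spread was taken from the other groups. The design assumed TPM, and its test was kept for this signal. The steps were tested on simulated data. Symbols were matched to official case (17811, 96.4%), and coordinates come from GENCODE M21.

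The members and lists were chosen with earlier results of these data known. Named genes are the members, the 3 genes of a list with the smallest p in a comparison, and the 3 most correlated genes for each member. Predicted genes, pseudogenes and clone names were left out of the correlated genes. Ndufb2 was also read because it overlaps Braf. Some genes that this rule names, and the counts of 1 pathway list, are not reported here. Alternatives were other pseudocounts, filters, scalings, weights, control sets, fits on the compared groups alone, 3 pairings of day 27 tumours and leaving out each tumour.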

Additional observations from a re-analysis of the deposited data

Results flagged for a closer look

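The members Hras, Braf and Araf are listed here for the difference between their day 27 and day 3 values under PLX4032. Because both days share the controls, this is the comparison of day 27 with day 3 described above and no further test. The difference was 0.61 for Hras (adjusted p = 0.0148), 0.36 for Braf (adjusted p = 0.040) and -0.23 for Araf (adjusted p = 0.041), each the day 27 minus the day 3 value on the log2 scale, by limma with Benjamini-Hochberg adjustment. Of the 14 fits without 1 tumour, 13 kept the call for Hras, 3 for Braf and 1 for Araf. Hras was higher in 4 of 4 day 27 tumours than in both day 3 tumours, as was Braf, and Araf was lower in 4 of 4. Nras, which was not called, was also higher in 4 of 4. Values of these days did not overlap for 65.1% of all genes tested, so this separation adds nothing to the calls. For the 7 members in the day 27 tumours and in the 4 controls, 14 groups were checked. In 0 of them did a tumour's gap to its neighbour, divided by the range of the group, exceed Dixon's 95% critical value for 4 samples (0.829).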

How the results depend on the processing

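Of 910 values for a member under an alternative, 791 kept direction and side of the threshold, 76 lost a call, 5 gained one and 38 changed sign, of which 0 were called. Only values of called changes could lose a call, so the 76 are not to be set against the 910. Those changes were Hras, Mapk3 and Braf on 1 day each against controls, and Hras, Braf and Araf for day 27 against day 3. The 791 include uncalled values that stayed uncalled. The causes of lost calls, gained calls and changed signs were not tested. The count of members called at day 3 (1) was 2 under median-of-ratios scaling, quantile normalisation and the day 3 controls alone, and 0 to 1 without 1 tumour. At day 6 (1) it was 0 with columns rescaled to 1000000, no variance trend, the compared groups alone and the day 6 controls alone, and 0 to 1 without 1 tumour. At day 18 (0) it was 1 under quantile normalisation. At day 27 (1) it was 0 with no filter, quantile normalisation, sample weights, the compared groups alone, the day 6 controls alone and each pairing, and 0 to 1 without 1 tumour. Day 27 against day 3 (3) gave 1 with the compared groups alone and under pairing 2, 2 with no filter, quantile normalisation, rescaling, no variance trend, sample weights and pairings 1 and 3, and 0 to 2 without 1 tumour. Under median-of-ratios scaling it was 3, with Nras gained (adjusted p = 0.032 by limma) and Araf lost (0.150). The 3 ratios changed no call.

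The values that changed sign were not called, before or after. Median-of-ratios scaling, quantile normalisation and rescaling to 1000000 gave -0.0466, -0.166 and -0.0246 for Braf and -0.0581, -0.0939 and -0.0325 for Map2k1 at day 18, and 0.0432, 0.041 and 0.0485 for Map2k1 at day 27 against day 3. The first and second gave -0.0062 and -0.254 for Braf at day 3. Rescaling gave 0.0245 for Araf and 0.006 for Map2k2 at day 6, 0.0619 for Nras and 0.0385 for Araf at day 27, and 0.0033 for Mapk3 at day 27 against day 3. Nras at day 27 was 0.0656 against the day 6 controls alone, and Hras at day 27 was -0.0131 with sample weights. Without 1 tumour, day 3 values ran from -0.0467 to 0.163 for Braf and -0.0507 to 0.307 for Map2k1. At day 6 they ran from -0.188 to 0.0256 for Hras and -0.0076 to 0.364 for Map2k1, and at day 18 from -0.0559 to 0.0744 for Braf and -0.0816 to 0.0956 for Map2k1. At day 27 they ran from -0.0662 to 0.0147 for Nras, -0.112 to 0.138 for Hras, -0.10 to 0.001 for Araf and -0.052 to 0.0898 for Map2k2. Day 27 against day 3 they ran from -0.201 to 0.157 for Map2k1 and -0.0083 to 0.134 for Map2k2.

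Counts over all genes were fragile. The 937 calls of day 6 were 0 with the compared groups alone, 8 against day 6 controls alone, and 0 to 2145 without 1 tumour. The 1254 of day 18 were 178 with the compared groups alone, 761 against the day 6 controls and 370 to 2220 without 1 tumour. The 1056 of day 27 were 231 against the day 6 controls, 170 to 260 under the pairings and 497 to 1140 without 1 tumour. The 7249 of day 3 were 4345 without its tumour 2. Quantile normalisation moved the share of higher calls from 54.4% to 38.9% at day 3, 75.9% to 60.4% at day 6, 68.4% to 44.9% at day 18 and 47.3% to 61.3% for day 27 against day 3, and the median over all genes to -0.15 at day 3, where it was 0.02, and to 0.17, where it was -0.02, for day 27 against day 3. Median-of-ratios scaling gave 56.5% at day 18, and rescaling to 1000000 90.3% at day 6 and 74.3% at day 27 (main 53.7%).

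No paired analysis was possible because the table's columns give no animal and the groups share no usable replicate numbers. Read depth is unknown, so small differences of low genes such as Braf cannot be set against counting error.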
